A study of Homo sapiens with 3 samples.

Results

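The CC and CXC chemokine ligand genes were examined for accessible chromatin in hCMEC/D3, an immortalized cell line made from human brain microvessel endothelium. They were taken by symbol, as the protein-coding genes of a RefSeq gene table of GRCh38.p14 that are named CCL or CXCL followed by digits, with the CCL3L and CCL4L copies left out. This gave 38 genes, 24 CCL and 14 CXCL, of 20037 protein-coding genes. Per the labels, confluent cultures on rat tail collagen I were used at passages 4 to 6, and there was no other genotype, treatment, time or cell type among the samples. ATAC-seq marks accessible DNA by inserting sequencing adapters with the Tn5 transposase. The authors called 106415 broad peaks from 22188172 tags of 1 ATAC library, replicate 2. The other libraries are RNA replicates 1 and 2, whose transcript identifiers are not paired with genes in the files or tables used here, so the RNA level of these genes was not analysed here. With 1 library and no second group there is no test between groups, and no p-value was computed over genes, which are not replicates.

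Chemokines are small secreted proteins that bind G protein-coupled receptors and direct the movement of leukocytes. The CC and CXC families are named for whether the first cysteines of the protein are adjacent or separated by a residue. Most inflammatory members sit in gene clusters formed by duplication, and many are induced through NF-κB. Endothelial cells of the blood-brain barrier can release chemokines and display them on their lumen, where rolling leukocytes meet them.

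Members were grouped by position, as runs on a chromosome with gaps of at most 200 kb. The first chromosome 4 cluster holds CXCL8, CXCL6, CXCL1, CXCL5, CXCL3 and CXCL2, ligands of CXCR2 that attract neutrophils. The second holds CXCL9, CXCL10 and CXCL11, interferon-induced ligands of CXCR3 on activated T cells. On chromosome 17, 1 cluster holds CCL2, CCL7, CCL11, CCL8, CCL13 and CCL1, mainly attractants of monocytes and eosinophils, and another holds CCL5, CCL16, CCL14, CCL15, CCL23, CCL18, CCL3 and CCL4. A further 7 members lie in pairs or trios, namely CCL22 with CCL17, CCL26 with CCL24, and CCL27 with CCL19 and CCL21. The remaining 8 are single genes, CXCL12, CXCL13, CXCL14, CXCL16, CXCL17, CCL20, CCL25 and CCL28.

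The promoter sequences below, 250 bases before to 50 bases after the start, are from the RefSeq table of GRCh38.p14, which holds a start for 29 of the 38 members. CCL2, CCL4, CCL5, CCL11, CCL14, CCL16, CCL17, CCL21 and CXCL16 are not among them. CXCL2, CXCL8, CXCL1 and CXCL3 are shown because a peak lay over each promoter and they had the highest pileups of such peaks. CXCL10 and CCL8, picked after their values were seen, are shown as promoters without a peak. Capitals mark matches, on either strand, to GGAATTTCC and GGGNNTTCC, letters typical of sites of the NF-κB family, to TGANTCA, typical of AP-1, and to TATAAA, the TATA box.
CXCL2 promoter (chr4:74099146-74099445, minus strand): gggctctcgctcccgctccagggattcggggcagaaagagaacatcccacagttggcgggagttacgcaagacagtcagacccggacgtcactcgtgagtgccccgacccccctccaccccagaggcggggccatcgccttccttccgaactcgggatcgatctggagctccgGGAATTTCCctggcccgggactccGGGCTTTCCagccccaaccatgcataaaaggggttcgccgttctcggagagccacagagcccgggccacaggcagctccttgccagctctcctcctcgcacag
CXCL8 promoter (chr4:73740319-73740618, plus strand): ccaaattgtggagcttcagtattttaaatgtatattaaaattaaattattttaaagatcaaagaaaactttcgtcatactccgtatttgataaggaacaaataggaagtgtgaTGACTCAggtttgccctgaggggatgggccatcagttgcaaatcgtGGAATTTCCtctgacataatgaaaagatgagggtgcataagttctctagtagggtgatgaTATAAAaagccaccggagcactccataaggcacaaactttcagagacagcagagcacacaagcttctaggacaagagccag
CXCL1 promoter (chr4:73869143-73869442, plus strand): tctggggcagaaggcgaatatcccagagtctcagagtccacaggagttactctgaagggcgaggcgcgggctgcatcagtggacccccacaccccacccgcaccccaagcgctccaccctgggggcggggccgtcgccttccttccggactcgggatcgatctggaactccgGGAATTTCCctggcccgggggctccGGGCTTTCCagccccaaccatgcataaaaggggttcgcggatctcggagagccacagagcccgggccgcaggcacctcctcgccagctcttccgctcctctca
CXCL3 promoter (chr4:74038640-74038939, minus strand): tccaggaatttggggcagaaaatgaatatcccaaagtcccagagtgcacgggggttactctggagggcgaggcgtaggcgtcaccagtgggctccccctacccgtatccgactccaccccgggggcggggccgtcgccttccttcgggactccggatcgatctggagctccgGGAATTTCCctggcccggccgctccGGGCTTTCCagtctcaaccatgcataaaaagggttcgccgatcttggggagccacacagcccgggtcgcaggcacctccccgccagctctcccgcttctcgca
CXCL10 promoter (chr4:76023448-76023747, minus strand): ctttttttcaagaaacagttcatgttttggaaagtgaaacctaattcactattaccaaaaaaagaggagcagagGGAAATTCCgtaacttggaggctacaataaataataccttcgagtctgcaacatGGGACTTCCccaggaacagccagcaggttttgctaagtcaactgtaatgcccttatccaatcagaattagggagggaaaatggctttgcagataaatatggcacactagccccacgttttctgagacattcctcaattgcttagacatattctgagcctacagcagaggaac
CCL8 promoter (chr17:34319185-34319484, plus strand): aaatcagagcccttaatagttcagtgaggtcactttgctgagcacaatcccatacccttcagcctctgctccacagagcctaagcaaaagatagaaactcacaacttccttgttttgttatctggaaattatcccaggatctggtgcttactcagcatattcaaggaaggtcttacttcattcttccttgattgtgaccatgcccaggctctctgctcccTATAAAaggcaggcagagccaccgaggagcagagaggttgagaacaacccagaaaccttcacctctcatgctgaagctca

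Every gene of the CXCL8 to CXCL2 cluster had a peak over its start, and each of these 6 promoters held GGAATTTCC. These letters were present in 90 of 22199 protein-coding promoters of the same length (0.405%), and in 8 of the 34 promoters listed for the 29 members (23.5%), the other two being those of CXCL10 and CXCL11. A match begins 91 bases before the start in CXCL8, 77 in CXCL2, and 78 in CXCL1 and in CXCL3. In CXCL1, CXCL2 and CXCL3 a match to GGGNNTTCC, read as GGGCTTTCC, begins 53 bases before the start. The 2 motifs overlapped in none of the printed promoters. The promoters of CXCL1 and CXCL3 were identical at 82.5% of aligned positions and those of CXCL6 and CXCL5 at 83.1%, while CXCL8 reached at most 48.0% with any of the other cluster promoters. The shared letters among CXCL1, CXCL2 and CXCL3, and those of CXCL6 and CXCL5, are thus not separate observations. Within each of these sets the genes are close copies. TATAAA was found in 14 of 34 member promoters (41.2%) and in 9.47% of all, and TGANTCA in 8 (23.5%) and 6.15%. GGGNNTTCC was found in 6 (17.6%) and in 7.28%. A match is a description of the letters, not of bound factors.

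Across all promoters outside the family, the share with a peak was compared between those with and without GGAATTTCC. A peak overlapped 57 of 82 promoters with the letters (69.5%, 95% Wilson interval 58.9% to 78.4%) and 14310 of 22083 without (64.8%, 64.2% to 65.4%). Among promoters poor in CpG, with an observed-to-expected CpG ratio under 0.6, the shares were 10 of 32 (31.2%, 18.0% to 48.6%) and 26.9% (25.96% to 27.9%). In both comparisons the interval of the smaller set contained the share of the larger one.

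Of the 38 members, 35 had at least 1 peak within the gene or 10 kb of it (92.1%, 95% Wilson interval 79.2% to 97.3%). Over all protein-coding genes the percentage was 89.8%, and it was 82.7% for the 3590 protein-coding genes between the lower and upper quartiles of the members' lengths, 2088 to 8303 bp. It was 89.1% over the members' whole length range, 768 to 100082 bp. These values lie within the members' interval, and the share near chemokine genes did not stand apart from the background. CCL8, CCL3 and CCL4 had no peak, with the nearest 12.7 kb, 15.4 kb and 31.0 kb from the gene. The interval treats genes as independent, although 9 of the 91 distinct peaks lay in the windows of more than 1 member. The window contents ran from 0 to 8 peaks with a median of 2, compared with 3 over all protein-coding genes and 2 over those between the quartiles of the members' lengths. There were 9 members at 1 peak, 8 at 2, 9 at 3, 4 at 4 and 5 at 5 or more. At least 3 peaks were present for 18 members (47.4%, 32.5% to 62.7%) and for 63.7% of all protein-coding genes.

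**Figure D1:**
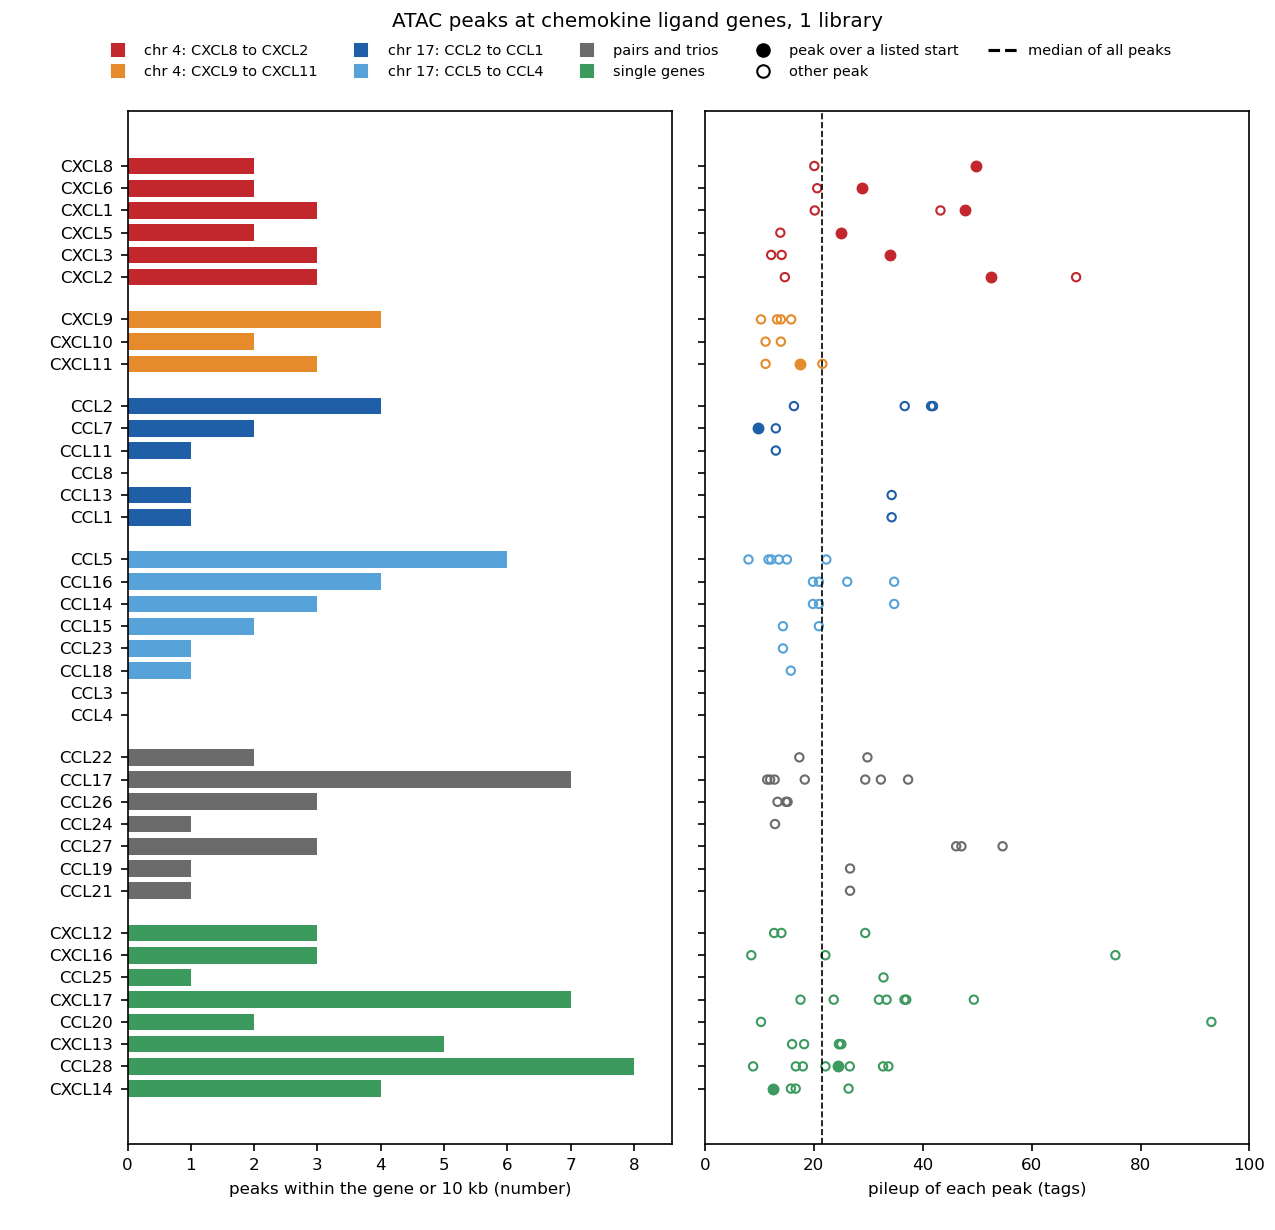
Left, number of peaks within each member gene or 10 kb of it. Right, the pileup in tags of every such peak, filled where the peak covers a start listed in RefSeq, with the median over all 106415 peaks, 21.6 tags, as a dashed line. All 6 genes of the CXCL8 to CXCL2 cluster have a filled point above the dashed line, and CCL8, CCL3 and CCL4 have none at all.

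At the genes themselves the share of members was below that of all protein-coding genes. It was not apart from that of genes between the quartiles of the members' lengths. A peak overlapped the gene body of 22 members (57.9%, 42.2% to 72.1%), compared with 82.1% of all protein-coding genes, and 25 members had one within 1 kb (65.8%, 49.9% to 78.8%), compared with 83.7%. Within 50 kb all 38 members had a peak, compared with 95.3%. Member genes are short, with a median of 3295 bp compared with 24115 bp over all protein-coding genes, so a gene body offers less sequence to overlap. Over protein-coding genes between the quartiles of the members' lengths, whose median is 4829 bp, the shares were 65.8% for the gene body and 69.8% within 1 kb. Both lie within the members' intervals. Over the members' whole length range, where the median gene is 17863 bp, the shares were 80.3% and 82.2%, above those intervals. Of the 91 peaks, 36 overlapped a member and 55 lay beside the members only.

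**Figure D2:**
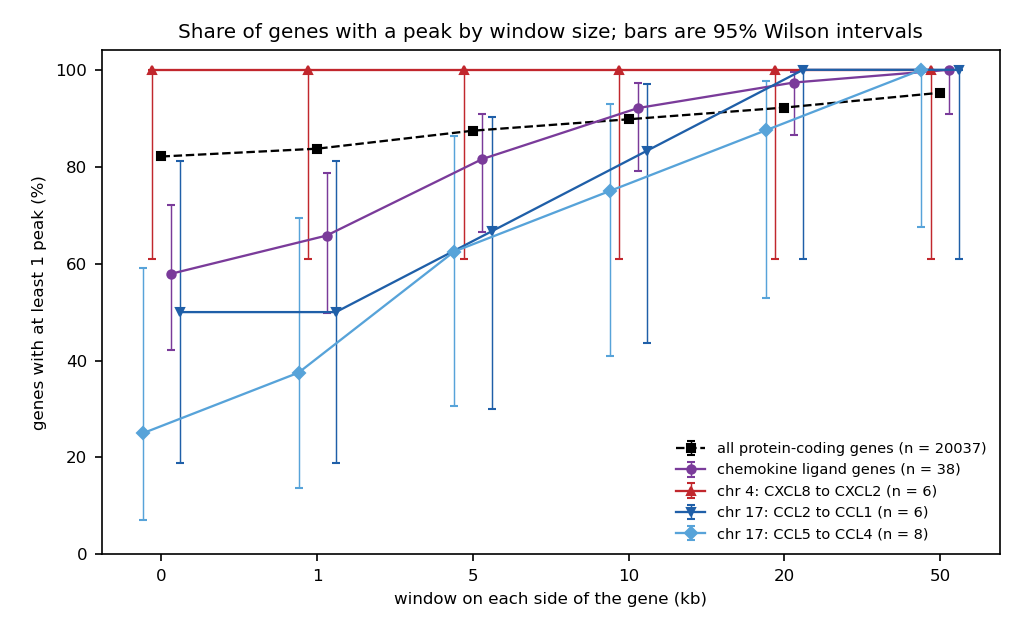
Percentage of genes with at least 1 peak against the window added on each side of the gene, in kb, with 95% Wilson intervals. The CXCL8 to CXCL2 cluster is at 100% from the gene body on, while all 38 members run from 57.9% to 100% and the CCL5 to CCL4 cluster from 25% to 100%.

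By their medians, peaks near members were shorter and lower than those near genes of similar length. Their median pileup was 20.6 tags (8.01 to 93.0; 95% interval of the median 16.7 to 24.99), and it was 23.2 tags for peaks within 10 kb of any protein-coding gene and 31.9 tags for those near genes between the quartiles of the members' lengths. The median length was 423 bp (200 to 1786; 95% interval of the median 365 to 496) against 476 bp and 580 bp, so in both measures the members' interval held the first value and lay below the second. The median fold over background was 4.66 against 4.44 and 4.19, each as given by the authors' caller. Counted once each, the peaks made a density of 8.92 per 100 kb of merged windows (exact Poisson interval 7.18 to 10.95). The density was 5.01 over all protein-coding genes, whose windows include long gene bodies, and 9.19 over those between the quartiles of the members' lengths. Over genes in the members' whole length range it was 6.91, below the members' interval. The median pileup and length of the peaks near those genes were 26.4 tags and 516 bp, above the members' intervals.

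The CXCL8 to CXCL2 cluster was the group in which every start was covered. All 6 genes had a peak covering the start, compared with 68.7% of the 15842 protein-coding genes with a listed start and with 22.3% of the 4710 among them whose promoters had a CpG ratio under 0.6. The Wilson interval of 6 of 6, 61.0% to 100%, contains the first of these shares and not the second. CpG-poor promoters are the closer comparison for CXCL8, CXCL6 and CXCL5, at ratios of 0.351, 0.319 and 0.372, while CXCL1, CXCL3 and CXCL2 were at 0.674, 0.778 and 0.706. CXCL8, also called interleukin-8, had a peak of 1226 bp with 49.8 tags, 5.53-fold over background, between 73740313 and 73741538 of chromosome 4. CXCL2 had a start peak from 74098842 to 74099821 at 52.5 tags and 5.90-fold. Both stood above the upper quartile of pileup over all peaks, 35.99 tags.

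CXCL1, also a CXCR2 ligand, had the longest peak near any member, 1786 bp from 73867937 to 73869722, with 47.8 tags and a fold of 2.67. Its fold was the lowest of the start peaks in this cluster. A second peak followed from 73872034 to 73873196, with 43.3 tags and a fold of 2.48, and another lay from 73859753 to 73859970, with 20.2 tags and 2.65. None of the 3 reached 4-fold, so once peaks under 4-fold were dropped, 5 of the 6 genes kept a peak within 10 kb and CXCL1 did not. CXCL3 had a start peak from 74038271 to 74039276 with 34.0 tags, CXCL6 one from 73836447 to 73837565 with 28.8, and CXCL5 one from 73998199 to 73999077 with 24.99. The start peaks of the 6 genes had a median of 40.9 tags, compared with 46.2 (quartiles 32.6 and 60.0) over the 10645 start-covering peaks of protein-coding genes. Of the 6, CXCL6 and CXCL5 fell under that lower quartile.

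The highest pileup of the cluster was not at a start. It belonged to a 1156 bp peak from 74109022 to 74110177, centred 10.4 kb before the start of CXCL2, at 68.2 tags and 4.48-fold. Another 13 peaks of the cluster lay more than 10 kb from any member, among 28 in the span of 378.6 kb. The highest of them, from 73776169 to 73776892, reached 52.6 tags and 8.14-fold and lay 32.5 kb from CXCL8. A peak from 73816660 to 73817286 with 34.0 tags lay 19.4 kb from CXCL6. The platelet chemokine genes PF4 and PPBP, which lie between CXCL1 and CXCL5 but carry other names, had no peak within 10 kb, and PF4V1 had 5.

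**Figure D3:**
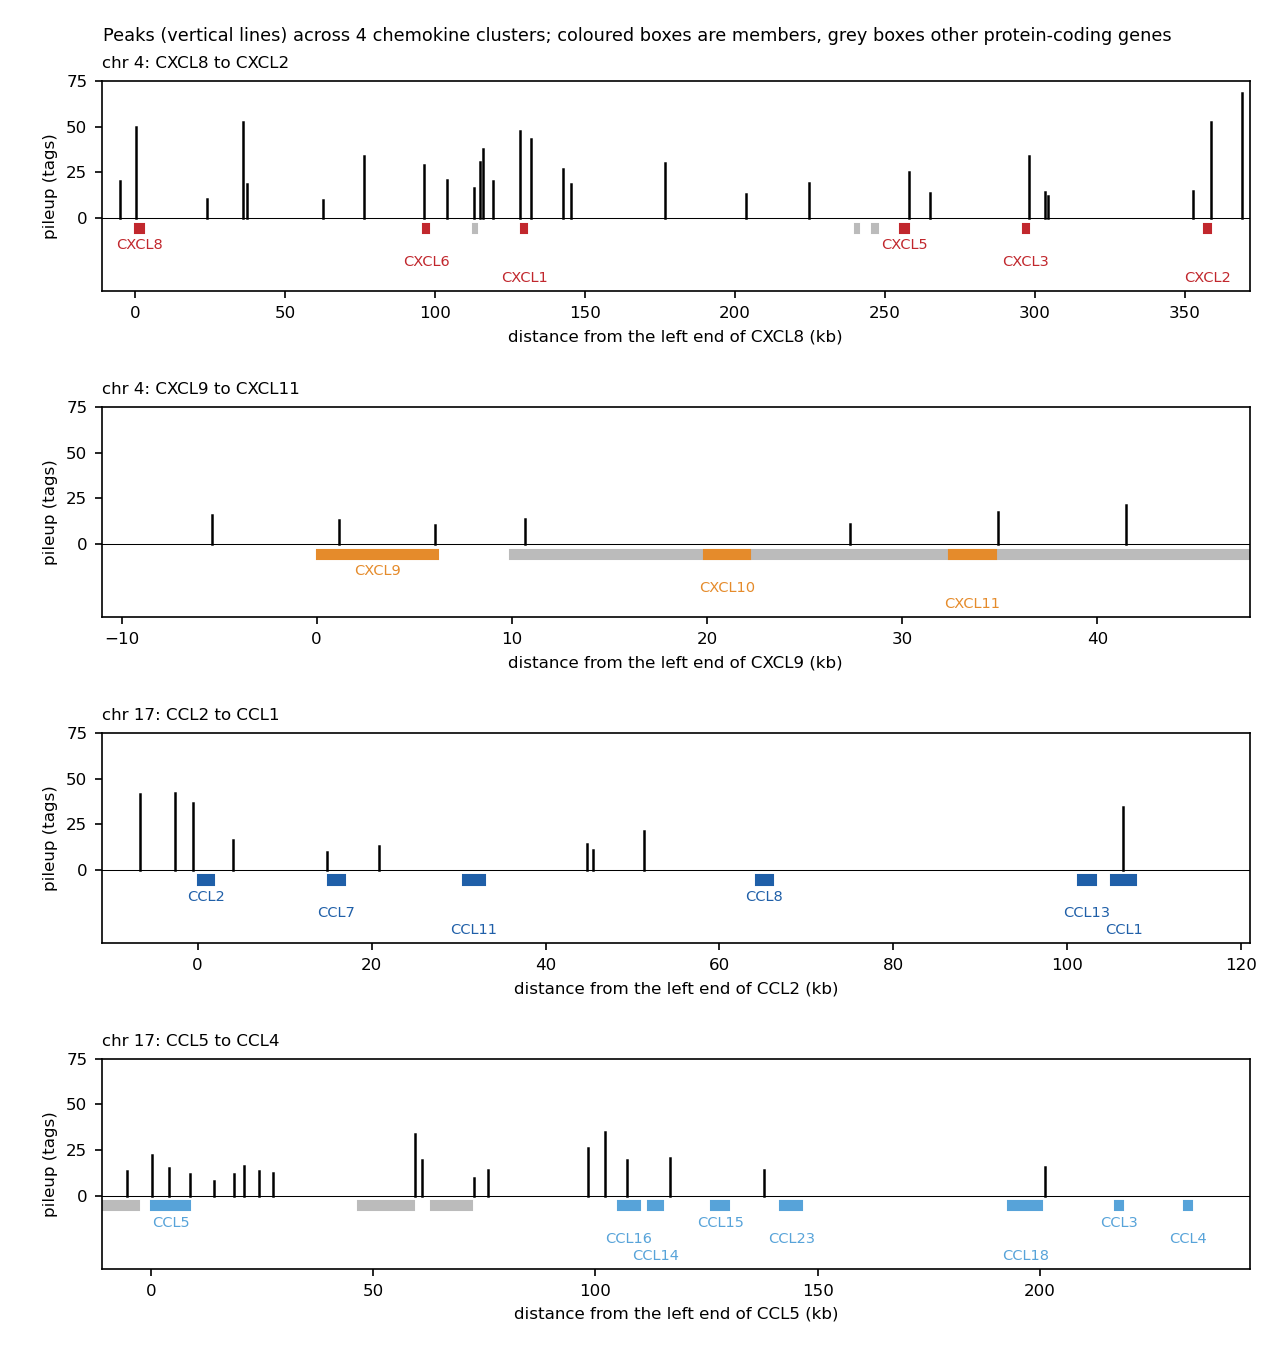
Pileup in tags of each peak (vertical lines) against the distance in kb from the left end of the first member, for the 4 larger clusters. Coloured boxes are members and grey boxes other protein-coding genes. In the top panel a line rises at each of the 6 members, while in the bottom panel 6 of the 8 members, CCL14, CCL15, CCL23, CCL18, CCL3 and CCL4, have no line on them.

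The CXCL9, CXCL10 and CXCL11 genes had low peaks. All 7 peaks of this cluster were between 10.3 and 21.6 tags, with a median of 13.96, and the highest equalled the median of all peaks to 3 digits. CXCL11 had a peak over its start, from 76035991 to 76036366 with 17.5 tags, and CXCL9 one ending 40 bp from its start with 10.3 tags. CXCL10 had none nearer than 4.90 kb to its start. Its promoter, printed above, holds matches to both NF-κB type motifs. The highest peak of each gene lay from 75995818 to 75996050 for CXCL9, with 15.8 tags, from 76011651 to 76012252 for CXCL10, with 13.96 tags, and from 76042353 to 76043089 for CXCL11, with 21.6 tags. The highest peaks of CXCL10 and CXCL11, and the start peak of CXCL11, also overlapped ART3, a gene outside the family. The density, 12.8 peaks per 100 kb, rests on 7 peaks (exact Poisson interval 5.14 to 26.3), and this interval overlaps those of the other clusters.

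On chromosome 17, 11 of 14 CCL genes had a peak within 10 kb (78.6%, 52.4% to 92.4%), but few had one at the gene's edge. A peak lay within 1 kb of the start, or of either end where no start is listed, for 3 of these 14 genes (21.4%, 7.57% to 47.6%), and for 6 of the 6 genes of the CXCL8 to CXCL2 cluster (100%, 61.0% to 100%). The background by the same rule was 72.3%, and 61.2% for genes between the quartiles of the members' lengths. The interval of the chromosome 17 genes lies below both, while that of the CXCL8 to CXCL2 cluster contains both. The intervals of the clusters do not overlap. With a window of 2.5 kb the chromosome 17 count was 6 of 14 (42.9%, 21.4% to 67.4%), compared with 77.0% of all protein-coding genes. The intervals of the clusters then overlapped, while the all-gene share still lay above the chromosome 17 interval. The comparison of the clusters is one of neighbouring genes within 1 library and was not tested. Promoter composition moves with it, since the 8 listed chromosome 17 genes had CpG ratios between 0.0615 and 0.275. Of these 8, 1 had a peak within 1 kb of its start (12.5%, 2.24% to 47.1%), an interval that contains the 31.6% of all protein-coding genes with ratios under 0.6. The part of composition in the difference between the clusters was not tested.

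CCL2, the main monocyte attractant of its family, had the highest pileup of the genes in these chromosome 17 clusters. It had 4 peaks, on chromosome 17 from 34248450 to 34248938 with 41.5 tags, from 34252219 to 34253100 with 41.9, from 34254195 to 34255336 with 36.7 and from 34259215 to 34259563 with 16.4. The one from 34254195 overlapped an end of the gene and had a fold of 3.37. CCL7, its neighbour, had the shortest peak near any member, 200 bp from 34270103 to 34270302 with 9.80 tags, over its start. It shared a peak of 13.03 tags, from 34275965 to 34276201, with the eotaxin gene CCL11. CCL13 and CCL1 shared 1 peak, from 34361482 to 34361888, within CCL1, at 34.3 tags and 10.5-fold, the highest fold near any member. The highest peaks thus lay at CCL2 and CCL1, the edges of the cluster, and CCL8 between them had none.

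In the CCL5 to CCL4 cluster peaks were mostly low. CCL5, a T cell and monocyte attractant, had 6 peaks between 8.01 and 22.3 tags, of which 3 overlapped the gene. The highest lay from 35871474 to 35871825 and the widest from 35879806 to 35880648, with 12.2 tags, and each overlapped an end of the gene. CCL16 and CCL14 shared their highest peak, from 35973231 to 35974223 with 34.8 tags, and CCL15 had 20.9 tags at a peak from 35987780 to 35988693 that it shared with both. CCL23 had 14.3 tags at a peak from 36009112 to 36009641, 3.42 kb from the gene, and CCL18 15.8 tags at one from 36072555 to 36072866, 0.523 kb from the gene. None of the 4 genes with a listed start, CCL15, CCL23, CCL18 and CCL3, had a peak within 1 kb of it. The closest was 7.56 kb away, at CCL15. CCL3 and CCL4, inflammatory ligands that attract monocytes and T cells, were the pair farthest from any peak.

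Of the genes outside these clusters, CCL20, the ligand of CCR6, had the highest peak near any member. It ran on chromosome 2 from 227817834 to 227819140, at 93.0 tags and 6.03-fold, as high as or higher than 99.5% of all peaks. It lay 0.278 kb past the gene and 4.65 kb from the start at its centre, and no peak lay within 3.99 kb of the start. CXCL16, a membrane-bound ligand of CXCR6, had 75.4 tags at a peak on chromosome 17 from 4730997 to 4732070, which overlapped MED11, and 22.1 tags at one that overlapped both CXCL16 and ZMYND15. CCL27, a skin chemokine, had 54.7 tags at a peak on chromosome 9 from 34651899 to 34652457 that overlapped IL11RA. For these peaks the file cannot say which gene they belong to, and 16 of the 91 peaks overlapped a protein-coding gene outside the family.

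The 5 members with the most peaks were CCL28, CXCL17, CCL17, CXCL13 and CCL5, whose 6 peaks are given above. CCL28, a mucosal chemokine, had 8, of which 6 overlapped the gene, and the highest, on chromosome 5 from 43389673 to 43390081, reached 33.7 tags and 10.3-fold. Its upstream start had no peak within 1 kb, whereas its inner start was covered by a peak from 43396798 to 43397375 with 24.5 tags. CXCL17 had 7 peaks, the highest, from 42422901 to 42424070 on chromosome 19 with 49.4 tags, overlapping LIPE, and 3 overlapping CXCL17 with 23.7 to 36.7 tags. CCL17 also had 7, with 37.3 tags at the highest, from 57418808 to 57419237 on chromosome 16. CXCL13, the B cell attractant, had 5 peaks of 16.02 to 25.1 tags at a gene of 100082 bp. The nearest was 6.08 kb from a listed start. The eotaxin genes CCL26 and CCL24 had 3 and 1 peaks, up to 15.2 and 12.9 tags, and CCL22, a CCR4 ligand, had 2, up to 29.8 tags.

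Homeostatic ligands differed among themselves. CXCL12, the ligand of CXCR4 that endothelial and stromal cells commonly make, had 3 peaks with 12.7, 29.4 and 14.1 tags. The first, on chromosome 10 from 44383771 to 44384962, ended 135 bp inside its start. CXCL14 had a start peak of 12.6 tags on chromosome 5 from 135578935 to 135579226, which also overlapped SLC25A48. CCL19 and CCL21, the CCR7 ligands of lymphoid tissue, shared a single peak of 26.7 tags, 9.99 kb and 6.34 kb from the genes. CCL25, the thymus and gut ligand of CCR9, had 1 peak of 32.8 tags, and no peak covered its start, which was 1.57 kb from it.

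Taking all 38 members by family, a peak at the start, or at an end where no start is listed, was found for 11 of 14 CXC genes (78.6%, 52.4% to 92.4%) and 6 of 24 CC genes (25%, 12.0% to 44.9%). The share was 72.3% over all protein-coding genes, which lies within the interval of the CXC genes and above that of the CC genes. Outside the CXCL8 to CXCL2 cluster the CXC count was 5 of 8 (62.5%, 30.6% to 86.3%), an interval that overlaps that of the CC genes. Over all 38 the count was 17 (44.7%, 30.1% to 60.3%). Of the 29 members with a listed start, 13 had a peak within 1 kb (44.8%), compared with 74% of protein-coding genes with a listed start and 62.9% of those between the quartiles of the members' lengths.

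Member promoters were poor in CpG, a feature common among genes of restricted expression. The median CpG ratio was 0.203 over 34 listed promoters, compared with 0.737 over all protein-coding promoters. All 6 members with a ratio of at least 0.6, CXCL1, CXCL2, CXCL3, CXCL12, CXCL14 and CCL28, had a peak within 1 kb of a start, where the percentage over protein-coding genes of such ratios was 91.9%. Of the 23 members under 0.6, 7 did (30.4%), near the 31.6% of the protein-coding genes under 0.6 and the 30.9% of those within the members' length range. These 7 were CXCL5, CXCL6, CXCL8, CXCL9, CXCL11, CCL7 and CCL24. Within each of these classes the members' share was thus near the background.

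**Figure D4:**
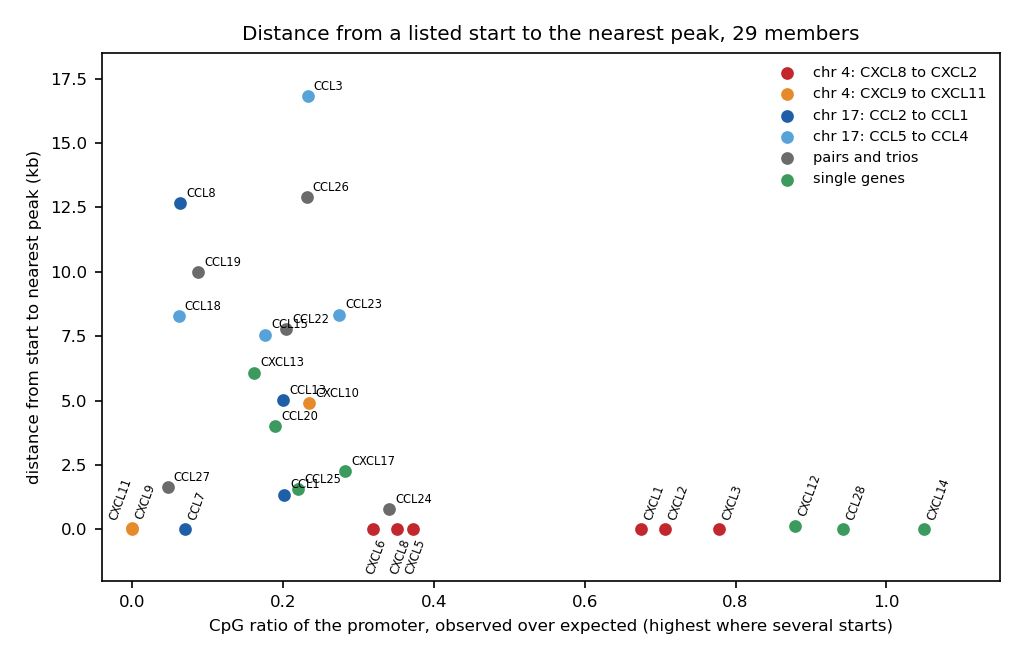
Distance in kb from a listed start to the nearest peak against the observed-to-expected CpG ratio of the promoter, for the 29 members with a listed start. The 6 genes of the CXCL8 to CXCL2 cluster lie at 0 kb with ratios from 0.319 to 0.778, and the farthest point is CCL3 at 16.8 kb.

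Chemokine receptor genes, most of them known from leukocytes, were placed in the same way. The background was 89.8% of all protein-coding genes with a peak within 10 kb and 72.3% with one at the start or an end. Of 17 chemokine receptor genes, 12 had a peak within 10 kb (70.6%, 46.9% to 86.7%) and 2, CCR4 and CCR10, had one at the start or an end (11.8%). CXCR2, the receptor of the first cluster's ligands, and CXCR4, CCR1, CCR2 and CCR8 had no peak. The 3 receptor genes with most peaks were CCR10 with 6, CX3CR1 with 5 and CCR4 with 4. All 6 atypical receptor genes, whose products act without G protein signalling, had 2 to 5 peaks within 10 kb. Among them ACKR2 and ACKR5 had 5 each and ACKR4 had 4, and ACKR4 and CCRL2 had one at the start or an end. CX3CL1, the membrane-bound chemokine of endothelium, lies between CCL22 and CCL17 and had 8 peaks, up to 31.2 tags. With PF4V1 at 5 and XCL1 at 1, it made 3 of 6 other chemokine ligand genes with a peak within 10 kb (50%, 18.8% to 81.2%). The background of 89.8% lies above the intervals of the receptors and of these ligands. The 82.7% of genes between the quartiles of the members' lengths lies within the receptor interval and above that of these ligands. No background matched to the lengths of the receptors or of these ligands is given here.

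The labelled cell type was checked at marker genes by the same rule. All 8 endothelial markers, such as CDH5, PECAM1 and ERG, had a peak at the start or an end, with 3 to 26 peaks within 10 kb, where 72.3% of all protein-coding genes had such a start or end peak. So did 4 of 4 mural or fibroblast markers, 2 of 3 epithelial and 3 of 6 leukocyte markers (CD3E, CD14 and SPI1, but not PTPRC). Peaks therefore do not separate these cell types on their own. No peak under 8.0 tags was called in this library, so for CCL8, CCL3 and CCL4 a weaker signal could not have been detected. CCL3 and CCL4 also have the CCL3L and CCL4L copies, and how reads were placed among such copies was not examined.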

How the data were processed

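The data used were 1 ATAC-seq peak list of hCMEC/D3 cells; RNA tables were not used. MACS 2.2.7.1 was run by the authors, per the file headers, on single ends without a control: tags were moved by -100 bp, lengthened to 200 bp and kept at 1 per position (22188172 of 31532245), with q limits of 0.05 (strong) and 0.1 (broad). The header's effective genome size, 1870000000 bp, is the caller's mouse preset. It enters the genome-wide background of a peak, and so its fold and q-value. How far it sets single folds, such as the highest at CCL1 and CCL28, was not examined. The deposited list gives, per the file headers, each peak's pileup signal, its ratio (fold) to background and, as −log10, its p-value and q-value, used here only to describe or filter peaks. The list names no build; GRCh38 and mm10 are among the submitters' processing notes.

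Peaks were placed on genes of a RefSeq table of GRCh38.p14 (Python 3.11.15, pandas 2.3.3), with an overlap of 1 bp. Of 22199 listed starts, 64.3% had a peak within 100 bp, and at most 5.48% did with offsets of 2 to 50 kb. On 22 of the 23 chromosomes with listed starts, Y excepted, the share was highest without an offset. Chromosome 8 has no listed start, so its genes were placed by either end and are not in the promoter backgrounds. Where no start is listed, as for all but 15842 protein-coding genes, either end was used. Intervals are at 95% (Wilson for shares, exact Poisson for densities, order statistics for medians) and cover counting over genes or peaks only. The overlap code was tested on simulated data. Members, groups, lists and motifs were chosen with earlier results of these data known. All members are named; peak values are given for cluster members, for the 5 with most peaks, the 5 with highest pileup and for genes singled out after their values were seen. The ligands were classed by symbol, and the planned ELR classes were not read from proteins. In the planned receptor list, 1 gene is not reported here and was left out of the counts.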

Additional observations from a re-analysis of the deposited data

How the results depend on the processing

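No paired analysis was possible because the ATAC group has 1 library. Of 150 alternative values, 119 stayed within the 95% interval of the reported value (for the number of runs of members, within 1.5-fold) and 31 moved out of it. Other window sizes and stricter filters change the sequence or the peaks counted by construction; no other cause was tested. The share of members with a peak was 57.9% in the gene body alone, 65.8% with 1 kb on each side, 100% with 50 kb and 73.7% when each peak went to its nearest protein-coding gene. Over all protein-coding genes the same 4 settings gave 82.1%, 83.7%, 95.3% and 86.8%. The median number of peaks was 1 in the gene body and with 1 kb, 7.5 with 50 kb, and 1.5 with peaks of at least 4-fold and with nearest-gene assignment. The density over all members was 6.57 per 100 kb with −log10 q of at least 5, 6.27 with at least 4-fold and 7.06 with nearest-gene assignment, and the median pileup was 26.1 tags with −log10 q of at least 5. In the gene body alone the density was 41.6 in the CXCL8 to CXCL2 cluster (26.5 with 1 kb). It was 27.3 in the CXCL9 to CXCL11 cluster and 22.2 in the CCL2 to CCL1 cluster. Over all protein-coding genes it was then 4.97, and 7.49 over those in the members' length range. A peak that touched a gene by 1 bp counted whole, so short genes give high densities by construction. With at least 4-fold the density was 3.96 in the CCL5 to CCL4 cluster. The same 2 backgrounds were then 3.08 and 4.17. A start or end peak within 2500 bp was found for 60.5% of members, 42.9% of the genes of the chromosome 17 clusters and 77.0% of all protein-coding genes. CC genes with a peak were 50% with 1 kb and 100% with 50 kb. The start or end count of the CXCL8 to CXCL2 cluster was 6 of 6 under each of the 5 alternatives run; a 4-fold filter was not among them, and CXCL1 had no peak of at least 4-fold within 10 kb. Using listed starts only, or either end for every member, was added after the data were seen. A background limited to the members' length range changes no member value. It is given in the results for the shares in the gene body, within 1 kb and within 10 kb. It is also given there for density, median pileup, median length and CpG-poor starts.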
